A study of Mus musculus with 8 samples.

Results

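Expression of lysosomal genes was followed through RNA sequencing of B16F10 cells, a mouse melanoma line, in which the GTP-binding protein gene Drg2 was or was not knocked down. The genes were taken from a list of 37 lysosomal enzymes, membrane proteins and regulators, out of 45556 named genes in the count table. The list was chosen by name, with earlier results of these data known. All 37 were found, and 36 passed the filter on low counts; the 1 that did not was Ctsk, with 11 counts over all libraries. The libraries form 4 groups of 2. Cells with the empty hairpin vector pLKO and cells with a hairpin against Drg2 (shDRG2) were each sequenced unstimulated and after 24 hours with 5 ng/ml of recombinant mouse interferon-gamma (IFN-γ). The control line carries no hairpin and each line is present once, so an effect of DRG2 loss cannot be told apart from other effects of the hairpin or from differences between these lines. Whether replicates came from different cultures is not stated, so p-values measure only the spread between these samples, which may be technical.

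Lysosomes are acidic organelles that break down proteins, glycans, lipids and nucleic acids delivered by endocytosis and autophagy. Their soluble hydrolases are made in the endoplasmic reticulum and mostly carried to the lysosome by mannose phosphate receptors, while glycosylated membrane proteins line and protect the limiting membrane. The basic helix-loop-helix factors TFEB and TFE3 bind E-box sequences in promoters of many lysosomal genes when nutrients are scarce. In antigen-presenting cells IFN-γ is known to induce proteases that trim antigens for major histocompatibility complex molecules. In pigment cells, melanosomes are lysosome-related organelles that share part of this gene set.

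Deposited totals were 25422758 to 36654519 counts per library, and the 37 genes together took 0.674% to 0.788% of them. Expression is given in CPM (counts scaled to a common library size), with sizes adjusted by trimmed mean of M-values (TMM). A gene is said to rise or fall where its adjusted p was under 0.05, and all other differences are given as values. Drg2 was at 76.3 and 68.6 CPM in unstimulated and 72.3 and 64.3 CPM in stimulated pLKO cells. It was at 8.68 and 9.34 CPM in unstimulated and 6.46 and 7.66 CPM in stimulated shDRG2 cells, so the knockdown held in every library. The IFN-γ targets Irf1, Cd274 and Gbp2 rose in both lines. Melanocyte markers were abundant, with the pigment gene Pmel at up to 4777 CPM. Macrophages, which are rich in lysosomes, left little trace: Adgre1, Itgam and Tyrobp had 0 counts in every library and the summed 8 macrophage markers were at no more than 1.30 CPM.

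Levels of the 37 genes spanned a wide range when divided by exon length (TPM, the length-scaled counterpart of CPM). Sqstm1, which encodes the autophagy receptor p62, was highest at a mean of 1290 TPM over all libraries, with libraries from 1064 to 1493 TPM. Ctsd, the aspartic protease cathepsin D, followed at 1272 TPM, and its library range of 1075 to 1537 TPM overlapped that of Sqstm1. Next came Ctsz (864 TPM) and Lamp1 (857 TPM), whose ranges also overlapped each other, then Psap (596 TPM), Cd63 (445 TPM), Grn (392 TPM), Hexa (311 TPM) and Ctsb (199 TPM). The cathepsins covered the whole span, since Ctsh was at 6.90 TPM, Ctsf at 0.604 TPM and Ctsk at 0.0954 TPM. Of the membrane proteins, the calcium channel gene Mcoln1 (6.82 TPM) and the Batten disease gene Cln3 (1.05 TPM) were far below Lamp1. The transcription factor genes Tfe3 and Tfeb were at 19.3 and 9.92 TPM.

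**Figure D1:**
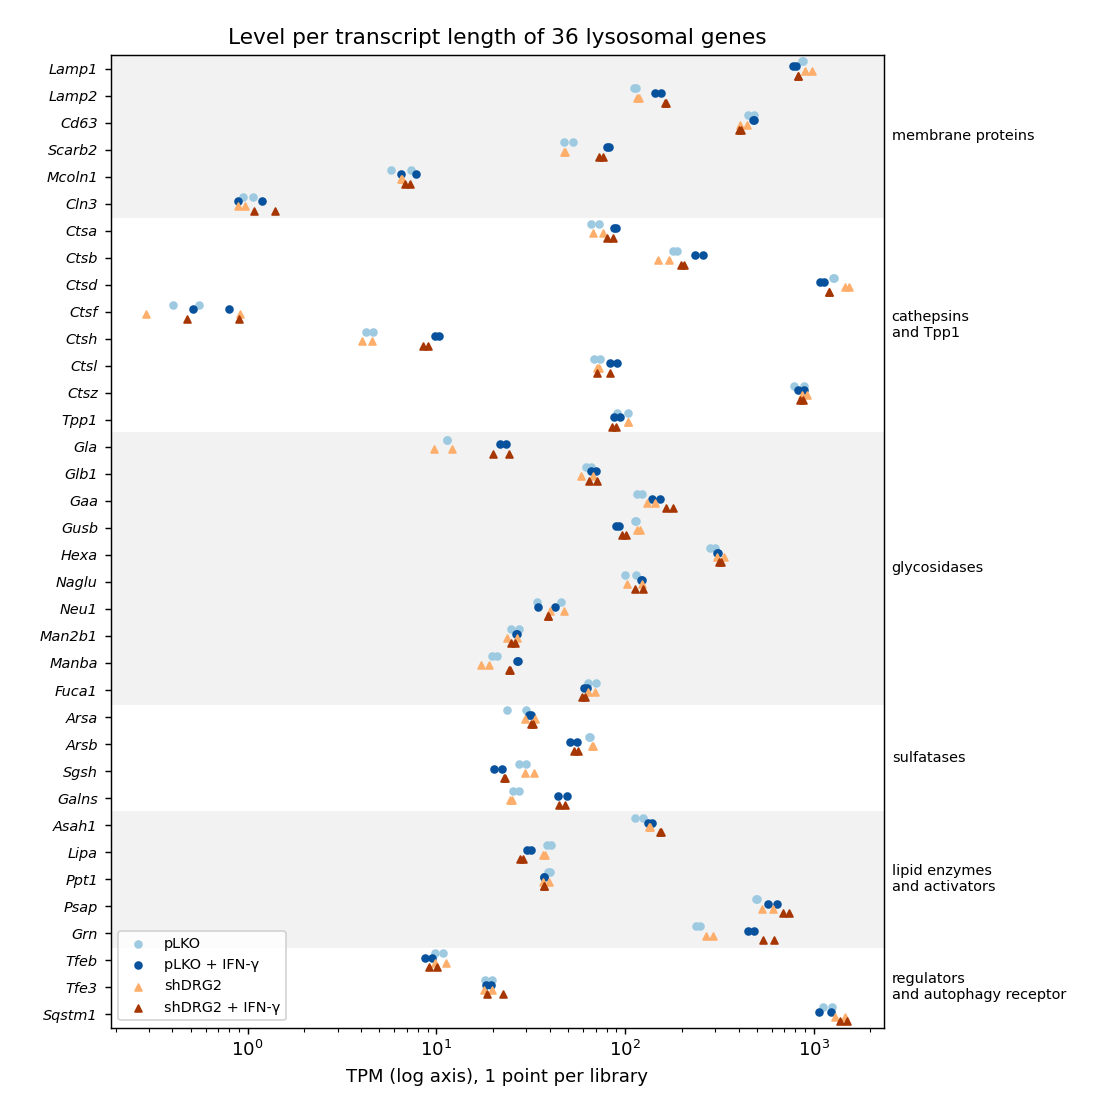
TPM on a log axis for the 36 tested genes by role, with 1 point per library and color and shape for the 4 groups. Sqstm1 and Ctsd stay at or above 1064 TPM in every library, while Ctsf stays under 1 TPM and its libraries are widely spread.

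Promoter sequence was examined because TFEB and TFE3 are among the members and the CLEAR element they bind is known from lysosomal promoters. Windows from 250 bases before to 50 bases after the RefSeq start (GRCm38.p6) were given for 33 of the 37 genes. The palindrome TCACGTGA, the core of the CLEAR element, was found in the windows of 5 of these 33 genes (15.2%) and of 1.12% of 27025 genes of the genome. These 5 were Cln3, Ctsa, Ctsd, Gla and Mcoln1. The shorter E-box CACGTG, which lies inside that core, was in 13 of the 33 (39.4%) and in 8.09% of all genes. The interferon-gamma-activated sequence TTCNNNGAA was in 2 of the 33 (6.06%), Arsa and Cln3, and in 9.55% of all genes. All 3 motifs read the same on both strands. Each TCACGTGA match among the members is shown 5′ to 3′ on the gene's strand with 10 flanking bases, the core in capitals and its first base counted from the start site.
Cln3, position -122, chr7:126583341-126583368, minus strand: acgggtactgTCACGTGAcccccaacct
Ctsa, position -13, chr2:164833750-164833777, plus strand: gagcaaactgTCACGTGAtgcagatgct
Ctsa, position 5, chr2:164833767-164833794, plus strand: atgcagatgcTCACGTGAccagagctac
Ctsd, position -99, chr7:142387909-142387936, minus strand: cgcccgcgtcTCACGTGAcccgttgagg
Gla, position -228, chrX:134601216-134601243, minus strand: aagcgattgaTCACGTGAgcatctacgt
Gla, position -195, chrX:134601183-134601210, minus strand: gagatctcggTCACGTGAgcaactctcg
Mcoln1, position -46, chr8:3500463-3500490, plus strand: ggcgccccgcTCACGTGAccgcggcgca
A match is a run of letters and not a measured binding site. The 5 carriers did not share 1 response to IFN-γ: Gla rose in both lines, Ctsa rose in pLKO cells, Ctsd fell in shDRG2 cells, and Cln3 and Mcoln1 were not called.

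IFN-γ changed 16 of the 36 tested genes in each line, raising more of them than it lowered. In pLKO cells 13 genes rose (36.1%), where 15.4% of all 13500 tested genes rose, and 3 fell (8.33%), where 12.7% of all genes fell. In shDRG2 cells 10 genes rose (27.8%, against 16.2% of all genes) and 6 fell (16.7%, against 15.2%). The shares that rose were thus above those of the whole table in this fit, though the counts that rose were also smaller in both lines without some single libraries. The counts that fell are too dependent on single libraries to be set against it: in pLKO cells none fell without unstimulated replicate 1 or stimulated replicate 2 and 1 fell without unstimulated replicate 2. In shDRG2 cells 1 fell without unstimulated replicate 1 and 2 without either stimulated library. In each line 5 called genes moved by at least 1.5-fold, and they were Scarb2, Ctsh, Gla, Galns and Grn in both. Of the 82 other lysosome genes tested below, 10 did so in pLKO and 12 in shDRG2 cells. The share over all genes was not counted. The median log2 fold change over the 36 genes was 0.13 in pLKO cells, beside 0.01 over all genes. In shDRG2 cells it was 0.08, beside 0.00, and it changed sign to -0.06 without unstimulated shDRG2 replicate 2 and to -0.03 without stimulated shDRG2 replicate 1. Summed over the 37 genes, expression was 6868 and 6486 CPM in unstimulated and 7580 and 7158 CPM in stimulated pLKO cells. In shDRG2 cells the sums were 7857 and 6981 CPM, and 8101 and 7578 CPM, so unstimulated and stimulated libraries overlapped there and did not in pLKO cells.

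The 7 genes Ctsh, Galns, Gla, Grn, Lamp2, Manba and Scarb2 rose in both lines under every one of 14 other ways of processing or leaving out a library. The other calls were less firm, and leaving out pLKO replicate 1 alone reduced the genes that rose in pLKO cells to 8, without Asah1, Ctsa, Ctsl, Gaa and Psap. Cell identity markers moved with IFN-γ too. The summed melanocyte markers were 12910 to 13030 CPM in unstimulated and 10960 to 11060 CPM in stimulated pLKO cells, and 13870 to 14940 CPM and 9621 to 10120 CPM in shDRG2 cells. Of the 7 markers, 4 fell in pLKO and 6 in shDRG2 cells. The summed macrophage markers went from 0.428 to 0.563 CPM to 1.08 to 1.25 CPM in pLKO cells and from 0.698 to 0.746 CPM to 1.12 to 1.30 CPM in shDRG2 cells, and Cd14, the 1 tested of them, rose in both lines. The 6 fibroblast markers, led by Col1a2, summed to 26.7 to 29.7 CPM and then 13.5 to 13.7 CPM in pLKO cells, and to 26.6 to 28.7 CPM and then 11.3 to 12.3 CPM in shDRG2 cells. The part of these shifts in the lysosomal changes was not tested. Because the libraries are bulk RNA, fewer expressing cells and less RNA per cell cannot be told apart.

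**Figure D2:**
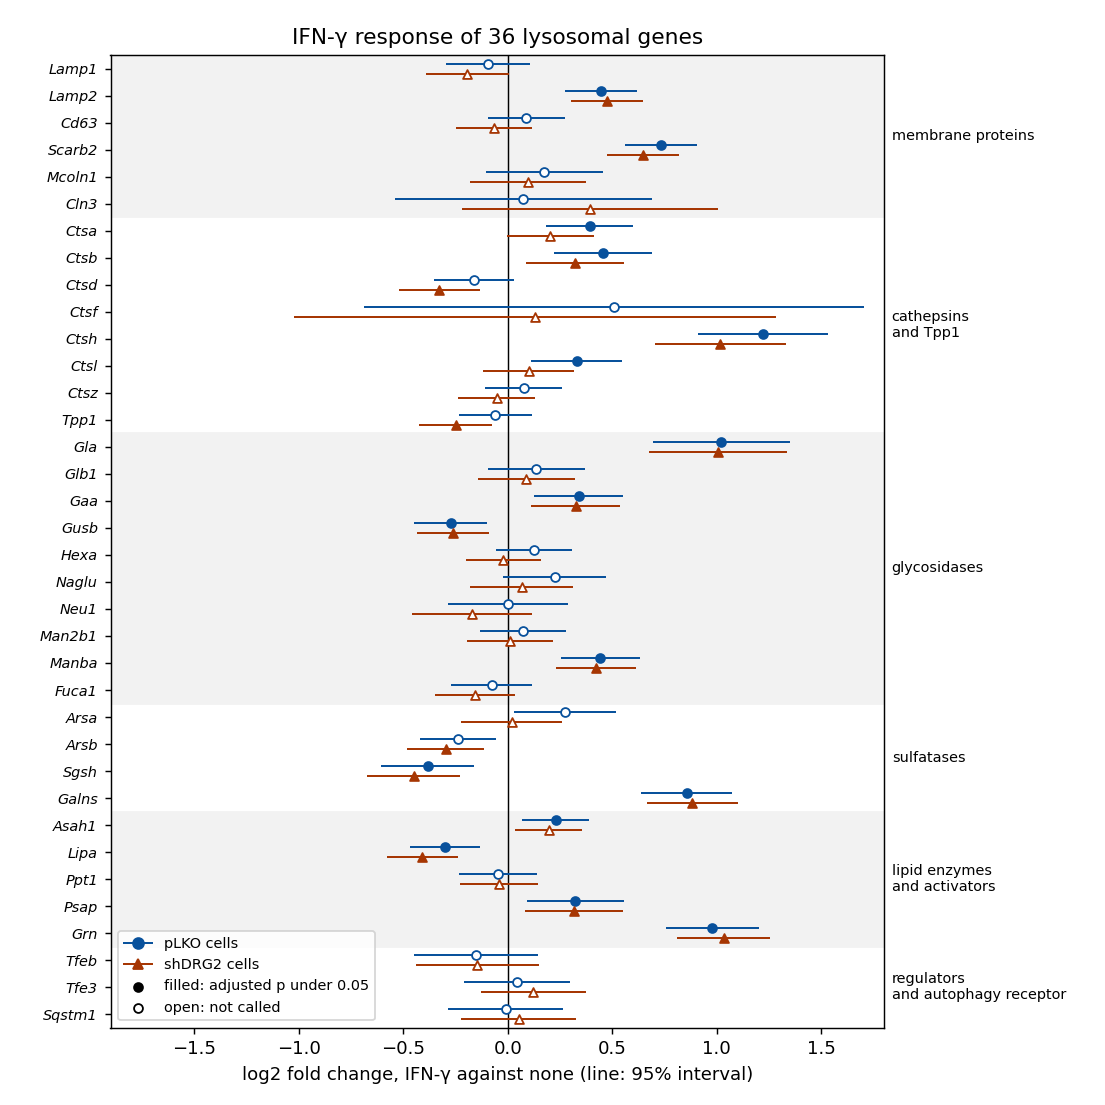
Log2 fold change of IFN-γ against unstimulated cells for 36 genes by role, circles for pLKO and triangles for shDRG2 cells, with 95% intervals as lines and filled symbols for adjusted p under 0.05. Ctsh, Gla, Grn, Galns and Scarb2 stand farthest to the right in both lines, and no gene is called in opposite directions.

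Among the 6 membrane protein genes, Lamp2 and Scarb2 rose in both lines and none fell. Scarb2 (LIMP-2, chromosome 5, 92441314 to 92506833, mm10) encodes the receptor that takes glucocerebrosidase to lysosomes. It was at 89.8 and 94.0 CPM in unstimulated and 151 and 154 CPM in stimulated pLKO cells, and at 91.8 and 87.3 CPM and then 145 and 135 CPM in shDRG2 cells. All 4 stimulated libraries were above all 4 unstimulated ones. Its log2 fold change was 0.73 in pLKO cells (SE 0.0751, adjusted p = 4.56e-05), a rise of 1.66-fold. It was 0.65 in shDRG2 cells (SE 0.0751, adjusted p = 9.93e-05), or 1.57-fold. Lamp2 (chromosome X, 38401357 to 38456454) makes a major glycoprotein of the lysosomal membrane, of which 1 isoform is the receptor of chaperone-mediated autophagy; the counts do not separate isoforms. Its libraries read 319 and 309 CPM unstimulated and 414 and 441 CPM stimulated in pLKO cells, and 345 and 325 CPM and then 469.8 and 462 CPM in shDRG2 cells. Stimulated libraries were again all above unstimulated ones, with changes of 0.45 (SE 0.0746, adjusted p = 0.00133) and 0.48 (SE 0.0746, adjusted p = 0.000768).

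The close relative Lamp1 was not called in the reported fit; in shDRG2 cells it was called lower under 2 of the 14 alternatives (lowest adjusted p = 0.0306). It was at 704 and 648 CPM and then 650.1 and 617 CPM in pLKO cells, and at 803 and 705 CPM and then 671 and 649 CPM in shDRG2 cells. Its log2 fold changes were -0.09 (adjusted p = 0.483) and -0.19 (adjusted p = 0.126), so the intervals of Lamp1 and Lamp2 did not overlap in either line: -0.29 to 0.10 against 0.28 to 0.61 in pLKO cells, and -0.39 to 0.00 against 0.31 to 0.64 in shDRG2 cells. Cd63, a tetraspanin of late endosomes, melanosomes and exosomes, lay between 439 and 538 CPM in all 8 libraries. Mcoln1, at 13.1 to 17.5 CPM, and Cln3, at 1.51 to 2.43 CPM, were not called, and the wide interval of Cln3 in shDRG2 cells (-0.21 to 1.00) left room for a change of 2-fold.

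The cathepsins and the peptidase gene Tpp1 moved in both directions. In pLKO cells 4 of the 8 tested rose (Ctsa, Ctsb, Ctsh and Ctsl) and none fell; in shDRG2 cells 2 rose (Ctsb and Ctsh) and 2 fell (Ctsd and Tpp1). Ctsh (chromosome 9, 90054152 to 90076089), a cysteine protease with aminopeptidase activity, changed most of the 37 genes in pLKO cells. It was at 6.26 and 5.38 CPM and then 13.9 and 13.2 CPM in pLKO cells, and at 6.28 and 5.31 CPM and then 12.3 and 11.3 CPM in shDRG2 cells. Each stimulated library was well above each unstimulated one. On the log2 scale the rise was 1.22 in pLKO cells (SE 0.138, adjusted p = 9.23e-05), or 2.33-fold. In shDRG2 cells the rise was 1.02 (SE 0.139, adjusted p = 0.000298), or 2.02-fold.

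Ctsb, an abundant cysteine protease, was at 345 and 305 CPM and then 469.6 and 423 CPM in pLKO cells, and at 316 and 267 CPM and then 376 and 354 CPM in shDRG2 cells. Groups did not overlap within a line, but the stimulated shDRG2 libraries came close to the higher unstimulated pLKO library. The changes were 0.46 (SE 0.103, adjusted p = 0.00779) and 0.32 (SE 0.103, adjusted p = 0.0361). The first was lost without pLKO replicate 2 (adjusted p = 0.0601), and the second without unstimulated shDRG2 replicate 2 or either stimulated shDRG2 library (adjusted p up to 0.205). Ctsa, the carboxypeptidase that also protects β-galactosidase and the sialidase NEU1, was at 93.1 and 96.5 CPM and then 124 and 125 CPM in pLKO cells. The shDRG2 libraries were at 110.2 and 93.6 CPM and then 124 and 111 CPM, where the groups nearly met. Its change was 0.39 in pLKO cells (SE 0.0919, adjusted p = 0.00979; 0.0674 without pLKO replicate 1) and 0.20 in shDRG2 cells (SE 0.0919, adjusted p = 0.121).

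Ctsl, a cysteine protease that matures other enzymes, was at 134 and 134 CPM and then 162 and 174 CPM in pLKO cells, and at 144 and 135 CPM and then 164 and 135 CPM in shDRG2 cells. Its stimulated shDRG2 libraries thus disagreed, 1 of them at the level of an unstimulated library. The change was 0.33 in pLKO cells (SE 0.0960, adjusted p = 0.0271) and 0.10 in shDRG2 cells (SE 0.0960, adjusted p = 0.477). The pLKO call was lost without either unstimulated pLKO library or stimulated pLKO replicate 2 (adjusted p up to 0.139). Ctsz, a carboxypeptidase and the third gene by TPM, stayed between 342 and 406 CPM, with 342 and 358 CPM and then 357 and 380.4 CPM in pLKO cells and 406 and 366 CPM and then 370.3 and 374 CPM in shDRG2 cells. Its changes of 0.08 (adjusted p = 0.533) and -0.05 (adjusted p = 0.666) were within the spread of its libraries.

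Ctsd, the aspartic cathepsin, had lower values in stimulated cells. It was at 908 and 833 CPM and then 808 and 750.1 CPM in pLKO cells, and at 1103 and 1013 CPM and then 854 and 834 CPM in shDRG2 cells. The stimulated libraries lay below the unstimulated ones in each line, with a wider gap in shDRG2 cells. The change was -0.33 in shDRG2 cells (SE 0.0844, adjusted p = 0.0139) and -0.16 in pLKO cells (SE 0.0844, adjusted p = 0.193). Tpp1, a serine protease that takes tripeptides off the ends of proteins, was at 142 and 150.2 CPM and then 136 and 144 CPM in pLKO cells, where the groups overlapped. In shDRG2 cells it was at 164 and 158 CPM and then 140.3 and 130.3 CPM, a change of -0.25 (SE 0.0765, adjusted p = 0.031) beside -0.06 in pLKO cells (adjusted p = 0.62). Neither fall held under every alternative: Ctsd was lost without unstimulated shDRG2 replicate 1 or either stimulated shDRG2 library (adjusted p up to 0.0927), and Tpp1 without pLKO replicate 1 or any 1 shDRG2 library, without a low-count filter and with only the groups compared (adjusted p up to 0.206). Ctsf, at 0.426 to 1.40 CPM, was not called.

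Of the 10 glycosidase genes, Gla, Gaa and Manba rose and Gusb fell, the same 4 in both lines. Gla (chromosome X, 134588149 to 134601125) encodes α-galactosidase A, the enzyme missing in Fabry disease. It was at 11.2 and 10.4 CPM and then 22.9 and 21.2 CPM in pLKO cells, and at 12.0 and 9.34 CPM and then 23.9 and 19.3 CPM in shDRG2 cells. Unstimulated and stimulated libraries were well apart, and the log2 change was 1.02 (SE 0.145, adjusted p = 0.000462) in pLKO and 1.01 (SE 0.146, adjusted p = 0.000459) in shDRG2 cells, close to 2-fold in each. Manba, the β-mannosidase gene, was at 41.6 and 41.3 CPM and then 56.2 and 56.3 CPM in pLKO cells, and at 40.5 and 35.3 CPM and then 51.3 and 50.4 CPM in shDRG2 cells. Stimulated libraries were all higher, by 0.44 (SE 0.0830, adjusted p = 0.00273) and 0.42 (SE 0.0835, adjusted p = 0.00331).

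Gaa, the acid α-glucosidase that degrades glycogen and is lost in Pompe disease, was at 166 and 165 CPM and then 221 and 199 CPM in pLKO cells. The shDRG2 libraries were at 209.8 and 184 CPM and then 260.4 and 233 CPM. The groups were apart within each line, but the unstimulated shDRG2 libraries spanned the level of the lower stimulated pLKO library. The changes were 0.34 (SE 0.0934, adjusted p = 0.0211) and 0.32 (SE 0.0932, adjusted p = 0.023). Gusb, the β-glucuronidase gene often used as a constant reference in PCR, was at 155 and 146 CPM and then 128 and 121 CPM in pLKO cells, and at 166 and 154 CPM and then 132 and 135 CPM in shDRG2 cells. All stimulated libraries were below all unstimulated ones, with changes of -0.27 (SE 0.0760, adjusted p = 0.0221) and -0.26 (SE 0.0759, adjusted p = 0.0244). The calls of Gaa and Gusb did not hold in each line without some of its own libraries: in pLKO cells without unstimulated replicate 1 or stimulated replicate 1 for both, without unstimulated replicate 2 for Gaa and without stimulated replicate 2 for Gusb (adjusted p up to 0.105 and 0.140). In shDRG2 cells Gaa was lost without unstimulated replicate 2 or stimulated replicate 1, and Gusb without unstimulated replicate 1 or either stimulated library (adjusted p up to 0.180 and 0.138).

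The other 6 glycosidase genes, Glb1, Hexa, Naglu, Neu1, Man2b1 and Fuca1, were not called in either line. Their log2 fold changes ran from -0.08 (Fuca1) to 0.23 (Naglu) in pLKO cells and from -0.17 (Neu1) to 0.09 (Glb1) in shDRG2 cells. These genes cover β-galactosidase, β-hexosaminidase, sialidase, α-mannosidase and fucosidase activities and the heparan sulfate enzyme N-acetylglucosaminidase. Naglu came nearest to a call, at 0.23 with an adjusted p of 0.157 and an interval of -0.02 to 0.47.

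The 4 sulfatase genes split. Galns (chromosome 8, 122578242 to 122611463), whose enzyme takes sulfate off keratan and chondroitin sulfate, was at 20.3 and 20.4 CPM and then 39.2 and 34.6 CPM in pLKO cells. In shDRG2 cells it was at 20.5 and 19.2 CPM and then 38.4 and 34.9 CPM. Stimulated libraries stood well above unstimulated ones, and the log2 change was 0.86 (SE 0.0961, adjusted p = 9.04e-05) in pLKO and 0.88 (SE 0.0966, adjusted p = 6.35e-05) in shDRG2 cells, or 1.81-fold and 1.85-fold. Sgsh, the heparan sulfamidase gene, went the other way: 36.3 and 36.9 CPM and then 29.8 and 26.4 CPM in pLKO cells, and 44.4 and 38.1 CPM and then 30.5 and 30.0 CPM in shDRG2 cells. No stimulated library reached an unstimulated one. The changes were -0.38 (SE 0.0977, adjusted p = 0.0148) and -0.45 (SE 0.0970, adjusted p = 0.0053).

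Arsb, whose enzyme acts on dermatan sulfate, was at 118 and 109.7 CPM and then 102 and 91.5 CPM in pLKO cells, and at 123 and 119 CPM and then 97.5 and 99.9 CPM in shDRG2 cells. It was lower in every stimulated library. Its change of -0.30 in shDRG2 cells was called (SE 0.0796, adjusted p = 0.0165), and the -0.24 in pLKO cells stood at the threshold (SE 0.0797, adjusted p = 0.0502) and passed it under 5 of the 14 alternatives. Arsa, the sulfatide sulfatase gene, was at 26.2 to 37.7 CPM in all libraries, with 0.27 in pLKO cells (adjusted p = 0.087) and 0.02 in shDRG2 cells (adjusted p = 0.92). The pLKO call of Sgsh was lost without either unstimulated pLKO library or stimulated pLKO replicate 2 (adjusted p up to 0.117), its shDRG2 call without unstimulated shDRG2 replicate 1 (0.0529), and the Arsb call without any 1 of the 4 shDRG2 libraries (up to 0.102). Library strand was not stated, so counts of genes that share exon bases with antisense or overlapping genes are less certain. The shared part was 39.9% of the exon bases of Arsb, 34.4% of Ctsd, 26.8% of Ctsl and 21.6% of Sgsh. It was 18.8% for Arsa, 17.4% for Ctsa, 17.3% for Sqstm1 and 12.8% for each of Ctsb and Hexa. Among smaller shares were 9.31% for Lamp1 and 7.65% for Cln3.

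Among the lipid enzymes and activators, Grn and Psap rose and Lipa fell in both lines. Grn (chromosome 11, 102430315 to 102437048) encodes progranulin, a secreted and lysosomal protein cut into granulins that support lipid breakdown. It was at 249 and 243 CPM and then 503 and 466 CPM in pLKO cells, and at 311 and 275 CPM and then 645 and 554 CPM in shDRG2 cells. All stimulated libraries were far above all unstimulated ones. Its log2 change was 0.98 in pLKO cells (SE 0.0975, adjusted p = 3.7e-05), or 1.97-fold, and 1.03 in shDRG2 cells (SE 0.0975, adjusted p = 2.1e-05), or 2.05-fold. No other of the 36 genes had a smaller adjusted p in either line. Psap, the precursor of the saposins that present sphingolipids to their hydrolases and a binding partner of progranulin, was at 410.0 and 385 CPM and then 527 and 468 CPM in pLKO cells. Among shDRG2 libraries it was at 508 and 428 CPM and then 612 and 554 CPM. Groups did not overlap within a line, and the unstimulated shDRG2 libraries reached into the range of the stimulated pLKO ones. The changes were 0.32 in both (SE 0.103, adjusted p = 0.0389 and 0.0385).

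Lipa, the acid lipase of cholesteryl esters and triglycerides, was at 78.7 and 76.8 CPM and then 65.1 and 61.1 CPM in pLKO cells, and at 77.9 and 73.6 CPM and then 56.7 and 57.5 CPM in shDRG2 cells. All stimulated libraries were below all unstimulated ones. The changes were -0.30 (SE 0.0734, adjusted p = 0.0118) and -0.41 (SE 0.0736, adjusted p = 0.00184), and the shDRG2 one was called under every alternative. Asah1, the acid ceramidase gene, was at 115 and 119 CPM and then 135 and 139 CPM in pLKO cells, and at 138 and 134 CPM and then 158 and 155 CPM in shDRG2 cells. Unstimulated shDRG2 cells were thus at the level of stimulated pLKO cells. The changes were 0.23 (SE 0.0700, adjusted p = 0.0328) and 0.20 (SE 0.0698, adjusted p = 0.0556). Ppt1, the thioesterase that takes palmitate off proteins, was flat at 39.6 to 44.3 CPM with -0.04 in each line. In pLKO cells the calls of Psap and Asah1 were each lost without unstimulated replicate 1, unstimulated replicate 2, stimulated replicate 1 or stimulated shDRG2 replicate 1 (adjusted p up to 0.173 and 0.188), that of Asah1 also without stimulated replicate 2, without a low-count filter, without scaling factors and with only the groups compared, and that of Lipa without unstimulated replicate 1, unstimulated replicate 2 or stimulated replicate 2 (0.0967). In shDRG2 cells Psap was lost without unstimulated replicate 2 or either stimulated library (up to 0.235).

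**Figure D3:**
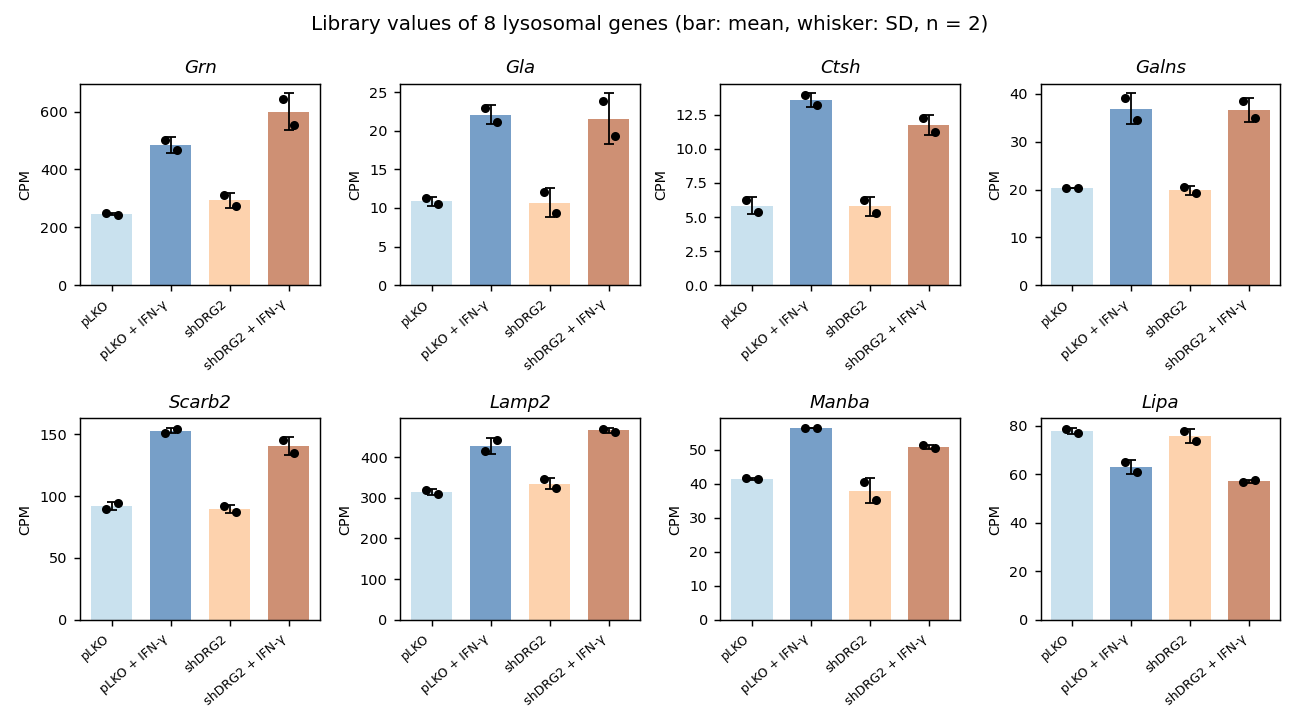
CPM of 8 genes in the 4 groups, with bars for the mean, whiskers for the SD (n = 2) and 1 point per library, each panel on its own axis from 0. The 7 genes that rose in both lines under every alternative, Grn, Gla, Ctsh, Galns, Scarb2, Lamp2 and Manba, have every stimulated library above every unstimulated one, and Lipa has every stimulated library below.

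None of the 3 regulator genes was called. Tfeb was at 14.7 to 19.5 CPM and Tfe3 at 48.9 to 63.4 CPM over all libraries. IFN-γ changed Tfeb by -0.15 in each line (adjusted p = 0.447 and 0.444) and Tfe3 by 0.04 and 0.12 (adjusted p = 0.817 and 0.447). Since these factors are controlled largely by phosphorylation and nuclear entry, transcript levels do not measure their activity. Sqstm1 was at 1265 and 1058 CPM and then 1249 and 1060.3 CPM in pLKO cells, and at 1496 and 1282 CPM and then 1514 and 1366 CPM in shDRG2 cells. In each of the 4 groups the library numbered 1 was the higher, and the stimulated and unstimulated pairs overlapped. Its IFN-γ changes were -0.01 (adjusted p = 0.971) and 0.05 (adjusted p = 0.791).

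The responses of the 2 lines were compared gene by gene. No sample is shared between them. The sign was the same in 32 of 36 genes, beside 72 of the 82 other lysosome genes tested below. The genes that rose in both lines were 10 (Lamp2, Scarb2, Ctsb, Ctsh, Gla, Gaa, Manba, Galns, Psap and Grn), which is 76.9% of those of pLKO cells and 100% of those of shDRG2 cells. Of those that fell, 3 (Gusb, Sgsh and Lipa) did so in both, which is 100% of those of pLKO and 50% of those of shDRG2 cells. Among the other lysosome genes the shared rises were 81.8% of those of pLKO and 81.8% of those of shDRG2 cells. Their shared falls were 93.3% and 70%. The same shares over all genes were not counted, so this overlap is not read as particular to the members. The remaining calls were made in 1 line: 3 in pLKO cells (Ctsa, Ctsl and Asah1) and 3 in shDRG2 cells (Ctsd, Tpp1 and Arsb). None of these 6 was called in the test of the difference itself.

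In that test no member was called, where 0.00741% of all genes were, and no member had an unadjusted p under 0.05 by edgeR; DESeq2 called none either. Differences are given as the log2 change in shDRG2 cells minus that in pLKO cells. They were -0.19 for Ctsa (95% interval -0.48 to 0.10), -0.23 for Ctsl (-0.53 to 0.07), -0.17 for Ctsd (-0.43 to 0.10) and -0.19 for Tpp1 (-0.43 to 0.05). For the genes that rose most they were 0.05 for Grn (-0.25 to 0.36), -0.02 for Gla (-0.47 to 0.44), -0.20 for Ctsh (-0.64 to 0.23), 0.03 for Galns (-0.27 to 0.33) and -0.09 for Scarb2 (-0.32 to 0.15). The interval lay within 0.5 on either side of 0 for 29 of the 36 genes, with a median half-width of 0.30. The sign leaned one way: 27 of 36 differences were negative (75%), beside 52.5% of all genes, with a median of -0.07 beside -0.01. Of the 82 other lysosome genes tested below, 60 differences were negative, with a median of -0.06, so the lean was not particular to the members. All 8 tested cathepsin and Tpp1 differences were negative. The lean of the members rested on 1 library, since their median was 0.02 without unstimulated shDRG2 replicate 1.

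No member was called in the knockdown comparisons with the low-count filter and no pairing of libraries. Without IFN-γ, 1.2% of all genes were called by edgeR in this fit and no member was, nor did DESeq2 call one; without the filter Ctsd was called. The 7 members Ctsd, Gaa, Hexa, Arsa, Asah1, Psap and Grn had an unadjusted p under 0.05 by edgeR, and all 7 were higher in shDRG2 cells. With IFN-γ, 1.67% of all genes were called in the same fit and again no member was, nor by DESeq2; without the filter Grn and Sqstm1 were called. There 7 members had an unadjusted p under 0.05, of which Gaa, Asah1, Psap, Grn and Sqstm1 were higher and Cd63 and Ctsb lower. The 2 comparisons share no libraries. The share of all genes with an unadjusted p under 0.05 was not counted. The percentages above are for adjusted p and cannot be set beside these unadjusted counts of members. The smallest adjusted p was 0.165, for Ctsd without IFN-γ, and 0.186, for Grn with IFN-γ.

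Several genes had higher values in shDRG2 cells in both states, among them Grn, Psap, Asah1, Gaa and Sqstm1. Without and with IFN-γ, Grn differed by 0.25 (SE 0.0969, adjusted p = 0.292) and 0.31 (SE 0.0964, adjusted p = 0.186), and every shDRG2 library was above both pLKO libraries of the same state. For Psap the differences were 0.24 (adjusted p = 0.37) and 0.23 (adjusted p = 0.413), for Asah1 0.22 (adjusted p = 0.194) and 0.19 (adjusted p = 0.286), and for Gaa 0.25 (adjusted p = 0.285) and 0.23 (adjusted p = 0.331). Groups did not overlap for these 3 genes either. Sqstm1 differed by 0.26 (adjusted p = 0.422) and 0.32 (adjusted p = 0.303), again with every shDRG2 library of a state above its pLKO libraries. Lamp2, Hexa, Sgsh and Ctsd showed the same order of libraries in both states, so this order is not particular to the genes named first. For Hexa with IFN-γ the nearest libraries were at 185.945 and 185.916 CPM. Cd63 and Manba had the reverse order, with every shDRG2 library below both pLKO libraries of the same state. Ctsd, at 1103 and 1013 against 908 and 833 CPM, differed by 0.28 without IFN-γ (SE 0.0844) and by 0.12 with it (adjusted p = 0.691). How many of all tested genes had their libraries apart in this way was not counted. The separations are therefore given as orders of values and not as an effect of the knockdown.

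Ctsb had lower values in shDRG2 cells, by -0.16 without (adjusted p = 0.606) and -0.29 with IFN-γ (adjusted p = 0.258). Without IFN-γ its libraries overlapped, at 316 and 267 CPM in shDRG2 against 345 and 305 CPM in pLKO cells. Ctsb lies on chromosome 14, where the 436 tested genes had a median of -0.28 and -0.27 in the same comparisons. The part of this in the Ctsb values was not tested. Cd63 differed by -0.09 and -0.25 (adjusted p = 0.716 and 0.203). Over the 36 genes the median was 0.09 without IFN-γ, beside 0.01 over all genes, with 25 positive and 11 negative values. It was 0.00 without unstimulated shDRG2 replicate 1. The 82 other lysosome genes tested below also had a median of 0.09 without IFN-γ, with 57 positive and 25 negative values. With IFN-γ the median over the 36 genes was 0.01, beside 0.00, with 19 positive and 17 negative values. It was -0.02 without stimulated shDRG2 replicate 1. The interval lay within 0.5 on either side of 0 for 32 genes without and 31 genes with IFN-γ, with a median half-width of 0.21 in both, so for these genes it held no change as large as 1.5-fold. Genes of low count were less well bounded, with Ctsf at -0.77 to 1.62 without IFN-γ.

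**Figure D4:**
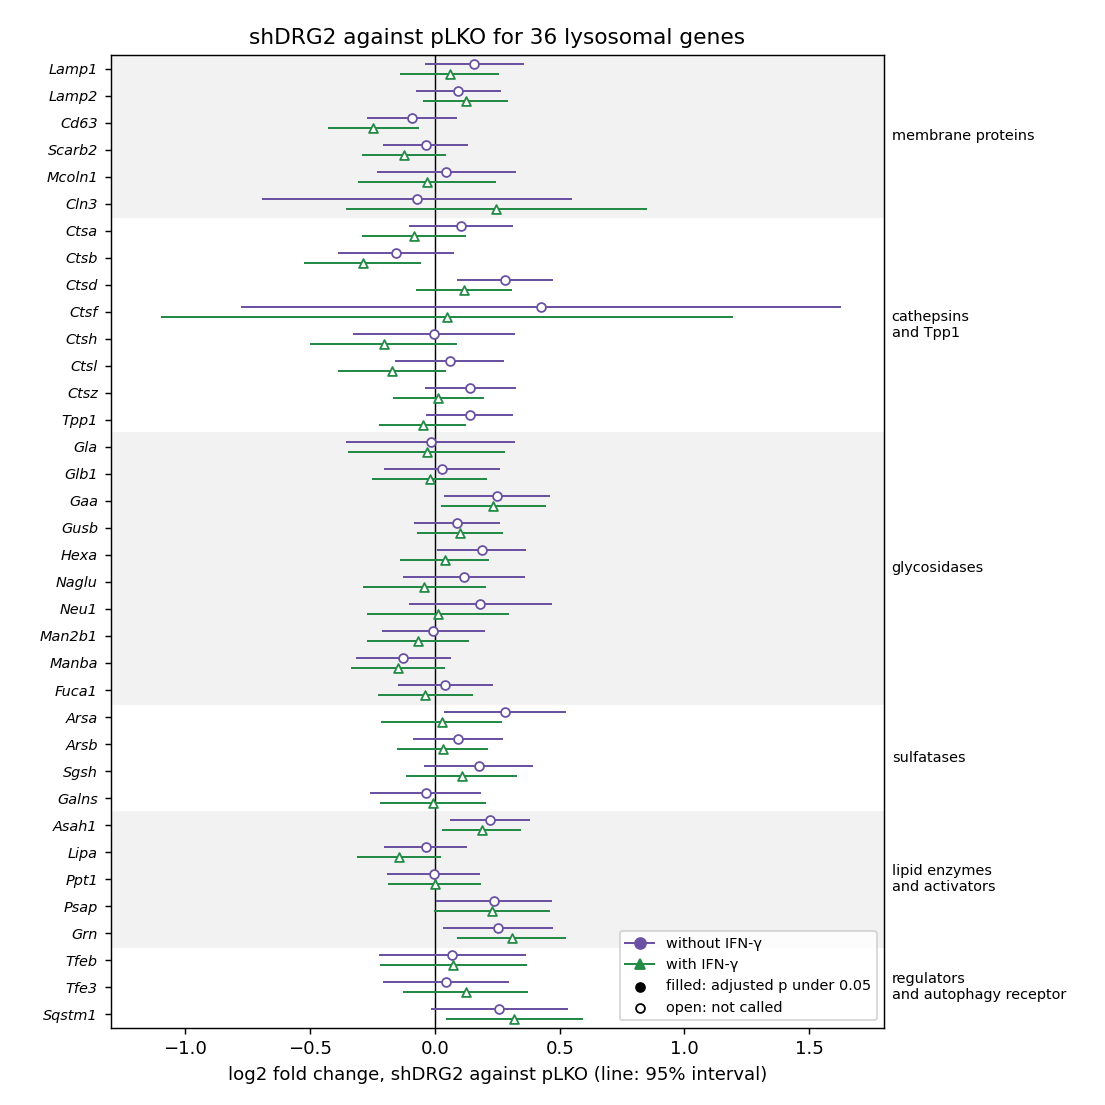
Log2 fold change of shDRG2 against pLKO cells for 36 genes by role, circles without and triangles with IFN-γ, with 95% intervals as lines; open symbols mark that no gene was called. Grn, Psap, Asah1, Gaa and Sqstm1 are among the genes right of 0 in both states, and Ctsb is among those left.

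A wider list of 84 other lysosome genes, of which 82 were tested, gave the setting. In pLKO cells IFN-γ raised 22 (26.8%, against 15.4% of all genes) and lowered 15 (18.3%, against 12.7%). In shDRG2 cells it raised 22 (26.8%, against 16.2%) and lowered 20 (24.4%, against 15.2%). Of the 82, 18 rose and 14 fell in both lines, and no gene was called in opposite directions. In the fit with the filter and no pairing, neither knockdown comparison nor the difference between responses called any of the 82. Of all genes, 1.2% and 1.67% were called in the knockdown without and with IFN-γ, and 0.00741% in the difference. With shares this low, few calls would be due among 82 genes. The smallest adjusted p among them in the knockdown by edgeR was 0.0785 without IFN-γ (Gabarap, 0.39) and 0.0602 with it (Smpd1, -0.49). Neither gene was followed under the 14 alternatives. Of those named below and followed under the 14 alternatives, Lgmn was called in the knockdown without IFN-γ under 1. The protease gene Ctso rose most among those with at least 5 CPM on average, from 1.34 and 1.35 to 11.2 and 12.0 CPM in pLKO cells and from 1.59 and 1.28 to 11.6 and 10.4 CPM in shDRG2 cells. Stimulated libraries were several times the unstimulated ones, with changes of 3.11 (SE 0.169, adjusted p = 3.19e-07) and 2.93 (SE 0.170, adjusted p = 4.81e-07). Ctss, the antigen-processing cathepsin S, was named after its values were seen. It had 1 count in the unstimulated and 432 in the stimulated pLKO libraries, a CPM ratio of 467 with a 95% counting interval of 83.4 to 18500. In shDRG2 cells it went from 0 to 599 counts, at least 174-fold higher when the unstimulated pair is set to a floor of 3 counts; such bounds cover counting error only.

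The legumain gene Lgmn rose in both lines, by 1.03 and 0.84 (adjusted p = 4e-06 and 1.5e-05), as did the membrane protein gene Laptm4a, by 0.92 and 0.90 (adjusted p = 1.03e-05 and 1.01e-05). Subunit genes of the proton pump that acidifies lysosomes diverged: Atp6v0a2 rose by 1.35 and 1.57 (adjusted p = 5.07e-07 and 1.49e-07), while its paralog Atp6v0a1 changed by -0.44 and -0.68 (adjusted p = 0.0049 and 0.000252). Of the 16 pump genes, 2 rose (12.5%) and 3 fell (18.8%) in pLKO cells, near the shares of all genes given above, and 2 rose (12.5%) and 6 fell (37.5%) in shDRG2 cells. The endolysosomal cation channel gene Tpcn1 had the largest fall, at -1.10 and -1.05 (adjusted p = 1.06e-05 and 1.36e-05). Sort1, a sorting receptor that carries several lysosomal proteins and takes up progranulin, changed by -0.65 and -0.79 (adjusted p = 8.63e-05 and 1.81e-05). Ifi30, the lysosomal thiol reductase gene, changed by -0.73 in pLKO cells (adjusted p = 0.0012) and -0.45 in shDRG2 cells (adjusted p = 0.0157); the latter was lost without unstimulated shDRG2 replicate 1 or either stimulated shDRG2 library (adjusted p up to 0.144). In the GENCODE M21 annotation Ifi30 is typed as a processed transcript and not as protein coding. It shares 8.67% of its exon bases with a gene on the opposite strand. Whether its counts follow the reductase transcript was not tested. The mannose phosphate receptor genes, named after their values were seen, split, with M6pr at 0.48 and 0.50 (adjusted p = 0.000922 and 0.000571) and Igf2r at -0.58 and -0.57 (adjusted p = 0.00031 and 0.000296).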

How the data were processed

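Bulk RNA of 8 B16F10 libraries was measured in 4 groups of 2, assigned by the labels. The authors deposited expected counts per gene, not normalized. Per the submitters' processing notes, the tools were STAR and Salmon 1.5.2 with mm10, with no role or order given; gene-level summary and strand were found in no source used here. Per the labels' protocols, RNA integrity numbers were above 8.5, and more than 1 HiSeq model and read length is named without saying which applies. Of nonzero values, 86.37% were whole within 0.0015. Entries with date-like names (27, with 0.2039% to 0.2124% of counts) were left out.

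Counts were rounded and fitted with edgeR 4.0.16 in R 4.3.3: filterByExpr (minimum count 10, minimum total 15, leaving 13500 genes), TMM (factors 0.9726 to 1.04), and 1 quasi-likelihood model over all 8 libraries without block (4 residual and 6.101 prior degrees of freedom, common coefficient of variation 8.493%). The 5 comparisons used the two-sided quasi-likelihood F test with Benjamini-Hochberg adjustment over all 13500 genes at 0.05. Fold changes are log2 and intervals are 95%. TPM used union exon lengths of GENCODE M21 (GRCm38), which matched 91.81% of names. The procedure was tested on simulated counts. Between replicates, the squared difference of a gene was divided by its counting variance, over genes with a mean of at least 50 counts. This ratio was on average 14.6 to 19.1, with a median of 2.83 to 3.64. Counting error alone gives an average near 1 and a lower median, so the spread of these genes was above what depth sets.

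The members, the lists and the tests were chosen with earlier results of these data known. Library values are given for every member called in any comparison and for the 3 highest by TPM; from the wider list, up to 3 called genes per direction and comparison with the largest change and a mean of at least 5 CPM are named. Alternatives were size factors of DESeq2 in edgeR, no scaling factors, no filter, DESeq2 1.42.0, the replicate number as block, only the groups compared, and each library left out.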

Additional observations from a re-analysis of the deposited data

How the results depend on the processing

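No member result changed sign in a called state under any alternative. The 42 results for single members stayed on their side of the threshold in 513 cases, lost a call in 55 and gained one in 20; 7 of the 16 calls in pLKO and 8 of the 16 in shDRG2 cells held under all 14 alternatives. Knockdown calls among the members appeared without a low-count filter, 1 without IFN-γ (Ctsd) and 2 with it (Grn and Sqstm1). Leaving out libraries 1 at a time gave 8 to 13 genes that rose and 0 to 3 that fell in pLKO cells, and 7 to 11 that rose and 1 to 6 that fell in shDRG2 cells. The pLKO falls numbered 0 without unstimulated pLKO replicate 1 or stimulated pLKO replicate 2 and 1 without unstimulated pLKO replicate 2. The shDRG2 falls numbered 1 without unstimulated shDRG2 replicate 1 and 2 without either stimulated shDRG2 library. The cause of these shifts was not tested. A library left out leaves 1 in its group, which is then assumed to vary like the other groups. Over the whole table, genes called in the knockdown without IFN-γ numbered 162, but 678 with no filter, 312 with DESeq2, and 27 to 167 with a library left out; with IFN-γ they numbered 226, but 653 with no filter, 124 with only the groups compared, and 44 to 202 with a library left out. For the difference between responses they numbered 1, but 58 with no filter and 9 with DESeq2; the fit of only the groups compared was not run for it.

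Replicate numbers are shared between groups, but the labels do not say that a number marks a common culture or day. Deviations of same-numbered libraries correlated at 0.132 to 0.414 over the 6 pairs of groups, and with 2 numbers this is no more than a hint. With the replicate block, 2 members were called in the knockdown without IFN-γ (Ctsd and Sqstm1), 3 with IFN-γ (Ctsb, Grn and Sqstm1) and 0 in the difference, while IFN-γ called 17 in pLKO and 19 in shDRG2 cells. Over the whole table the block called 673, 675, 2, 5166 and 5634 genes in these comparisons.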
